A study of Mus musculus with 12 samples.

Results

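The imprinted Dlk1 to Dio3 cluster on mouse chromosome 12 was followed in cultured mouse medulloblastoma cells given a histone deacetylase inhibitor. Its members were chosen by gene symbol from the array annotation: 55 genes, made up of 3 protein-coding genes, 3 long non-coding RNAs, 47 microRNA genes and 2 small nucleolar RNA-like genes. Of these, 43 had a probe set that lists them alone, and 5 of the 43 (DQ267101, Mir299a, Mir380, Mir376a and Mir409) had a pair of them, so that 48 of the 41345 probe sets were read as members, with no filter on level. The other 12 members were listed only on probe sets that name several genes of the cluster, and are described apart. The choice used gene names, but the cluster was selected on earlier results in which Rian was higher after 12 h of LBH589. Differences between LBH589 and DMSO in the members are therefore given as a description, and no support is drawn from them.

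In this cluster the parental origin of a chromosome decides which genes are read. The protein-coding genes Dlk1, Rtl1 and Dio3 are expressed from the paternal chromosome, while Meg3 (also called Gtl2), Rian and Mirg, long RNAs without a protein product, are expressed from the maternal one. Most of the microRNAs and box C/D small nucleolar RNAs of the cluster lie along these maternal RNAs and are cut from them or from their introns, and DNA methylation of a region between Dlk1 and Meg3 marks the parental chromosomes. The maternal RNAs are abundant in brain. LBH589 (panobinostat) blocks histone deacetylases, enzymes that remove acetyl groups from histones and other proteins.

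The cells, called MP, model MYC-driven Group 3 medulloblastoma, a tumour of the cerebellum, and were taken from cerebella of NSG mice, an immunodeficient strain, dissociated and plated. Cells of 3 tumours (MP525, MP567 and MP570) received 25 nM LBH589 for 6 h, 0.00025% DMSO (the solvent) for 6 h, 25 nM LBH589 for 12 h or 0.00025% DMSO for 12 h. Each tumour gave 1 array to each of these 4 groups, 12 arrays in all, so the tumour is the replicate and 3 tumours limit the precision. Values are log2 expression values, so that a difference of 1 is a 2-fold difference. They are listed below in the order MP525, MP567, MP570. The cerebellar granule lineage factor gene Zic1 averaged 11.42 to 11.66 in the 4 groups, where the array medians were 7.10 to 7.21. Otx2, a factor gene of Group 3 and other medulloblastomas, averaged 7.25 to 7.42, near those medians. In these bulk arrays, fewer cells of a type and less RNA per cell cannot be told apart.

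The array reads long transcripts and their precursors, and the RNA came from an RNeasy column, which keeps mainly longer RNA, so the amounts of the short mature microRNAs were not measured. The mature microRNAs that the named microRNA genes encode are shown here because they are what the cell would cut from the transcripts described below. All 47 microRNA members were found in the RefSeq table (GRCm38.p6), with 88 distinct mature sequences. They are written 5′ to 3′, and the seed, bases 2 to 8, which pairs with target RNAs, is in capitals. Of the 16 below, miR-377-3p comes from a gene that was called in the paired fit alone (below), and the others from genes called higher in LBH589.
miR-382-5p: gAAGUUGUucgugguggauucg
miR-382-3p: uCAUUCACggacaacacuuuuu
miR-323-5p: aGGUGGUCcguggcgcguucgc
miR-323-3p: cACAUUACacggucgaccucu
miR-300-5p: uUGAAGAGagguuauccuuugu
miR-300-3p: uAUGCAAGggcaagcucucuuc
miR-453: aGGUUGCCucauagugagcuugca
miR-154-5p: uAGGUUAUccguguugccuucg
miR-154-3p: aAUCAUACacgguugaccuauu
miR-380-3p: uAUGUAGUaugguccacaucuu
miR-329-3p: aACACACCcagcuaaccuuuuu
miR-543-3p: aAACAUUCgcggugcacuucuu
miR-668-3p: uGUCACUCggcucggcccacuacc
miR-493-3p: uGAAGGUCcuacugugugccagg
miR-341-3p: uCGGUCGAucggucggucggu
miR-377-3p: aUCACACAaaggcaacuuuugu

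No seed was shared by any pair of mature microRNAs from the genes called higher. Across the 88 mature sequences, 4 seeds occurred in a pair of microRNAs each, which makes 8 sequences. One pair was miR-3070-3p and miR-3070-2-3p, and the others are printed here for comparison of their letters beyond the seed. Mir379 and Mir411 are next to each other in RefSeq, Mir654 lies between Mir376c and Mir376b, and Mir494 and Mir410 lie far apart in the group.
miR-379-3p: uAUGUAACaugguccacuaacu
miR-411-3p: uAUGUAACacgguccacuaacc
miR-494-5p: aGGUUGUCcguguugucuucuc
miR-410-5p: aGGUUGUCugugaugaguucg
miR-376c-5p: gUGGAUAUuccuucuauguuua
miR-376b-5p: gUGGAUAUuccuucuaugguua

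The promoter of Meg3, the first of the maternal RNAs, is shown as the sequence before their start. The probe set listed with Meg3 alone was not called, differing by -0.07 at 6 h and 0.01 at 12 h, and which strand it reads is not stated. Those that list Meg3 with other genes passed the threshold in the paired fit alone (below). In RefSeq (GRCm38.p6, plus strand), the window of 250 bases before to 50 bases after the first start site of Meg3 lies at chr12:109540746-109541045. The capitals mark a full cyclic AMP response element, TGACGTCA, which reads the same on both strands and begins 57 bases before the start site. This 8-base motif was in 588 of 32851 mouse promoter windows of that length, or 1.79%.
Meg3 promoter: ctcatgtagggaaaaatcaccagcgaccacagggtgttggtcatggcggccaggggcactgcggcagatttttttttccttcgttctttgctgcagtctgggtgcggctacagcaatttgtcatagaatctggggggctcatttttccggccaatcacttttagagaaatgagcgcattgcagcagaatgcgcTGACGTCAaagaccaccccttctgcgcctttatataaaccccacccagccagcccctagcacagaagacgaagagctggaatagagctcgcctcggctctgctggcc

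The window of Meg3 also held 2 copies of the shorter motif TGACG, counting both strands, and both lie inside the full motif. The shorter motif was in 20.8% of all windows. Those of Dlk1, Rian, Mirg, Dio3 and a second Meg3 start site held no full motif, and only that of Dlk1 held the shorter one. The match describes letters, and binding of a factor there was not measured.

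Among the 48 probe sets of members, 5 were called higher in LBH589 than in DMSO at 6 h and none lower (limma, adjusted p under 0.05 over all 41345 probe sets). This is 10.4%, where 3.64% of all probe sets were called higher and 3.20% lower. At an unadjusted p under 0.05, 19 were higher and none lower, where 4175 of all 41345 probe sets were higher and 3632 lower. After 12 h, 13 were called higher (27.1%) and none lower, where 3.98% of all probe sets were called higher and 4.56% lower. At an unadjusted p under 0.05, 17 were higher and none lower at 12 h, where 4142 of all probe sets were higher and 4461 lower. A paired fit, in which the tumour is a block, called 11 higher at 6 h and 15 at 12 h, with none lower at either time. In that fit 9.26% of all probe sets were called higher and 7.76% lower at 6 h, and 9.50% higher and 10.1% lower at 12 h. Without all arrays of MP525, MP567 or MP570, 0, 6 and 1 were called higher at 6 h and 1, 5 and 3 at 12 h. Without 1 array, 1 to 8 were called at 6 h, fewest without the LBH589 array of MP570 or the DMSO array of MP525 or of MP567, and 3 to 15 at 12 h, fewest without the LBH589 array of MP570. Nothing is read from these shares, since the drug effect was known when the cluster was chosen.

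The median log2 difference of the 48 was 0.32 at 6 h and 0.33 at 12 h, where that of all probe sets was -0.01 at both times. A positive difference was found for 39 of the 48 at 6 h and for 42 at 12 h. Every LBH589 array lay above every DMSO array for 19 members' probe sets at 6 h (39.6%, against 12.1% of all probe sets) and for 20 at 12 h (41.7%, against 11.5%). Both times share no arrays, but they share the tumours.

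**Figure D1:**
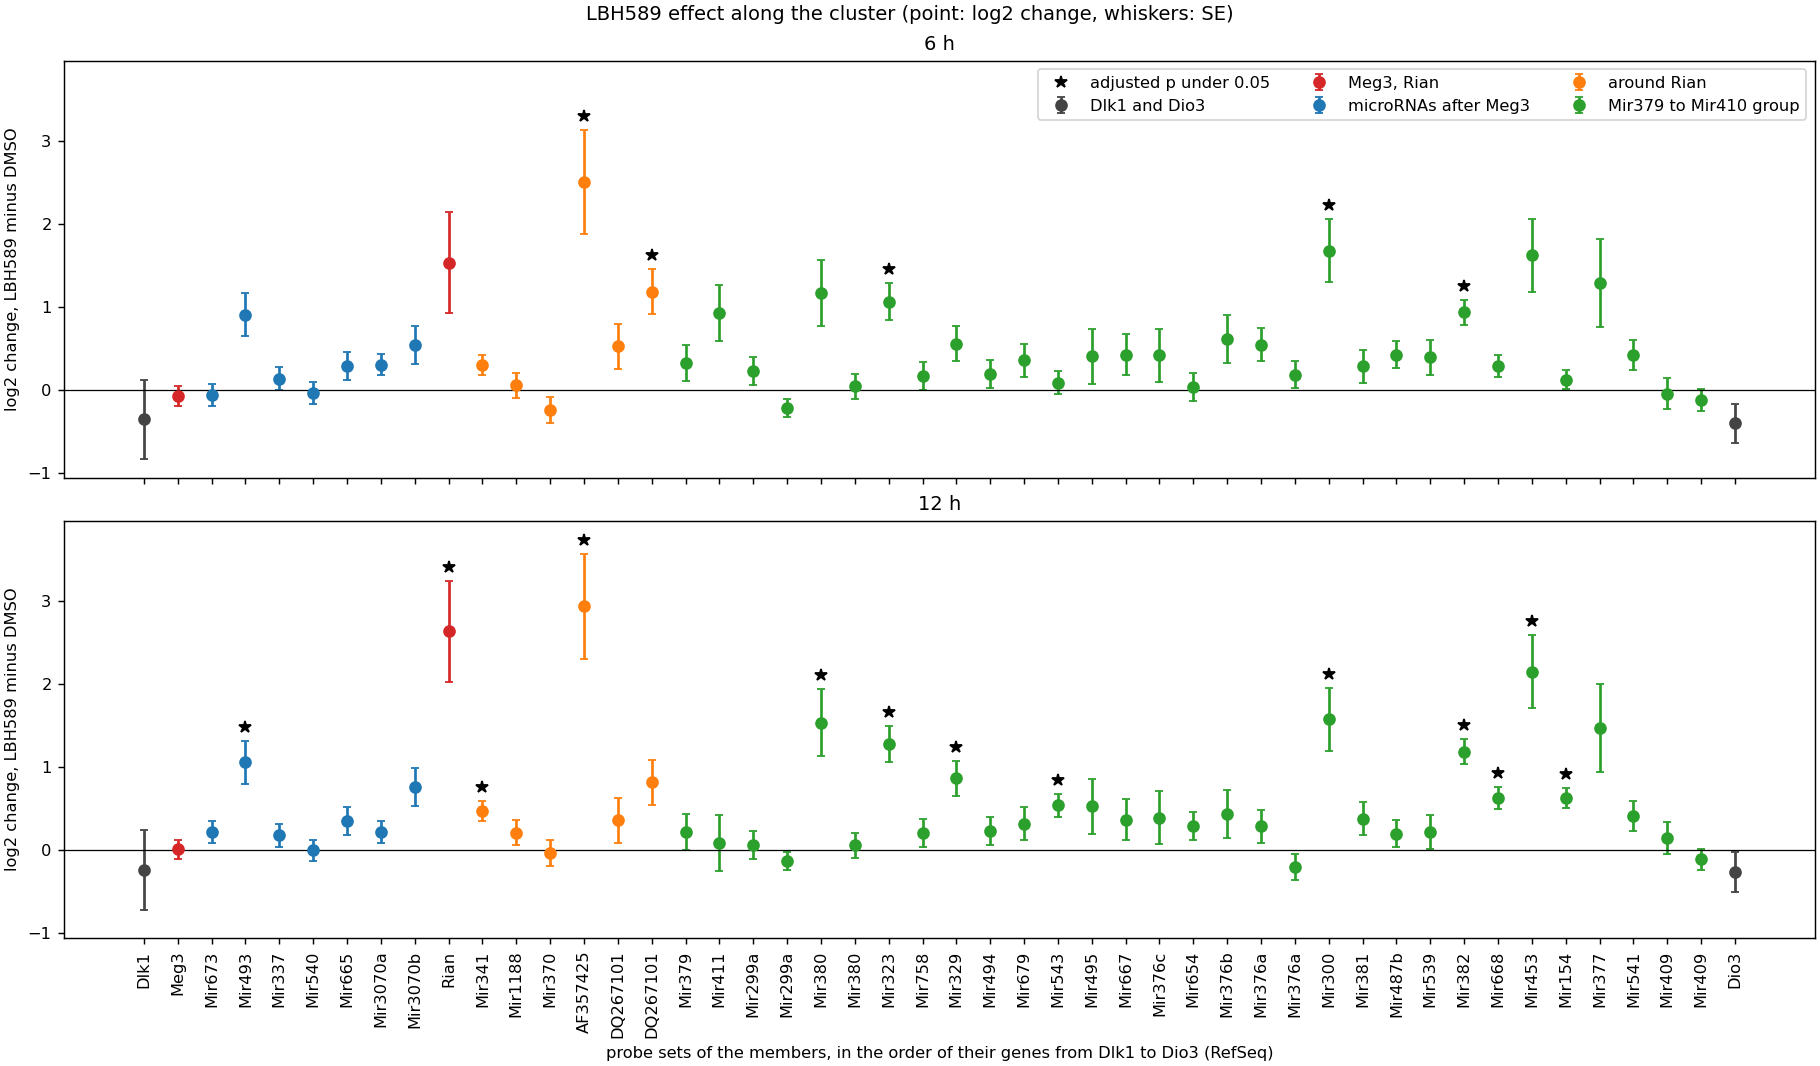
Log2 difference between LBH589 and DMSO (y axis, points, whiskers are the standard error) at 6 h (upper panel) and 12 h (lower panel) for the 48 probe sets of members, in the order of their genes from Dlk1 to Dio3 (x axis). Colours give the stretch of the cluster and stars an adjusted p under 0.05. Rian and AF357425 are the highest points at 12 h, at 2.64 and 2.94, and Dlk1 and Dio3, at the 2 ends, lie below 0 at both times.

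The paternally expressed genes at the ends of the cluster were not called at either time. Dlk1, which encodes a membrane protein of the Notch ligand family that holds back differentiation, had values of 9.37, 7.94 and 8.33 in LBH589 at 6 h, against 9.69, 8.32 and 8.69 in DMSO at 6 h. After 12 h they were 8.91, 8.12 and 8.44 in LBH589, against 9.63, 8.04 and 8.53 in DMSO. MP525 was the highest in all 4 groups, and the groups overlapped at both times. The differences were -0.35 ± 0.48 at 6 h and -0.24 ± 0.48 at 12 h (log2 change ± SE, as below). Within tumours, LBH589 was lower by a similar step in all 3 at 6 h (-0.32, -0.39 and -0.36), but in 2 of 3 at 12 h (-0.72, 0.08 and -0.09).

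Dio3 encodes the deiodinase that inactivates thyroid hormone. Its values were 6.68, 6.61 and 6.11 in LBH589 at 6 h, against 6.73, 6.88 and 7.01 in DMSO at 6 h. Every LBH589 array was below every DMSO array at that time. After 12 h they were 6.60, 6.07 and 7.09 in LBH589, against 6.78, 7.08 and 6.68 in DMSO. The groups overlapped at 12 h, MP567 being 1.01 lower and MP570 0.41 higher in LBH589 than in its own DMSO culture. The differences were -0.40 ± 0.24 at 6 h and -0.26 ± 0.24 at 12 h.

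Rian, the long maternal RNA that carries many of the small nucleolar RNAs, was the only long RNA called on a probe set of its own, which Mirg lacks. Probe sets that list Meg3 or Mirg with other genes are described below, and some of those with Mirg were also called. Rian had values of 8.62, 8.18 and 9.87 in LBH589 at 6 h, against 7.53, 6.57 and 7.95 in DMSO at 6 h. After 12 h the values were 9.63, 9.03 and 10.87 in LBH589, against 7.19, 6.26 and 8.15 in DMSO. Every LBH589 array was above every DMSO array at both times, and in all 4 groups MP570 was the highest and MP567 the lowest. The differences were 1.54 ± 0.61 at 6 h, not called, and 2.64 ± 0.61 at 12 h, called, which is 6.24-fold. Within tumours the steps at 12 h lay close together, at 2.44, 2.77 and 2.72. The call at 12 h was lost without any of 3 single arrays (the DMSO array of MP525 or of MP567, or the LBH589 array of MP570), and the log2 difference was then 2.64, 2.17 and 2.13. It was also lost without all arrays of MP525 (2.74) or of MP567 (2.58). In the paired fit, Rian was also called at 6 h.

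The probe sets listed with Meg3, the first maternal RNA, gave mixed readings. The only probe set listed with Meg3 alone had 7.26, 6.98 and 7.27 in LBH589 at 6 h, against 7.46, 7.16 and 7.11 in DMSO at 6 h. After 12 h it had 7.20, 7.24 and 7.24 in LBH589, against 7.17, 7.15 and 7.35 in DMSO. The groups overlapped, and the differences were -0.07 ± 0.12 and 0.01 ± 0.12.

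A probe set listed with both Meg3 and Mir770, a microRNA gene inside Meg3, read differently. It had 8.41, 8.14 and 9.18 in LBH589 at 6 h, against 7.83, 7.55 and 8.07 in DMSO at 6 h. After 12 h it had 8.50, 8.47 and 9.58 in LBH589, against 7.90, 7.46 and 7.95 in DMSO. Every LBH589 array lay above every DMSO array, with differences of 0.76 ± 0.33 at 6 h and 1.08 ± 0.33 at 12 h. Neither was called, and both were in the paired fit. Another probe set, listed with Meg3, Mir1906-1 and Mir1906-2, differed by 0.71 ± 0.22 at 6 h and 0.53 ± 0.22 at 12 h, again called in the paired fit alone. By identifier, the probe set of Meg3 alone lies in the series of Dio3os, the antisense partner of Dio3. That listed with Mir770 lies in the series of Dlk1, Rian and Dio3. The annotation gives no strand, so on none of these probe sets can Meg3 itself be told apart from other RNA of the region.

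**Figure D2:**
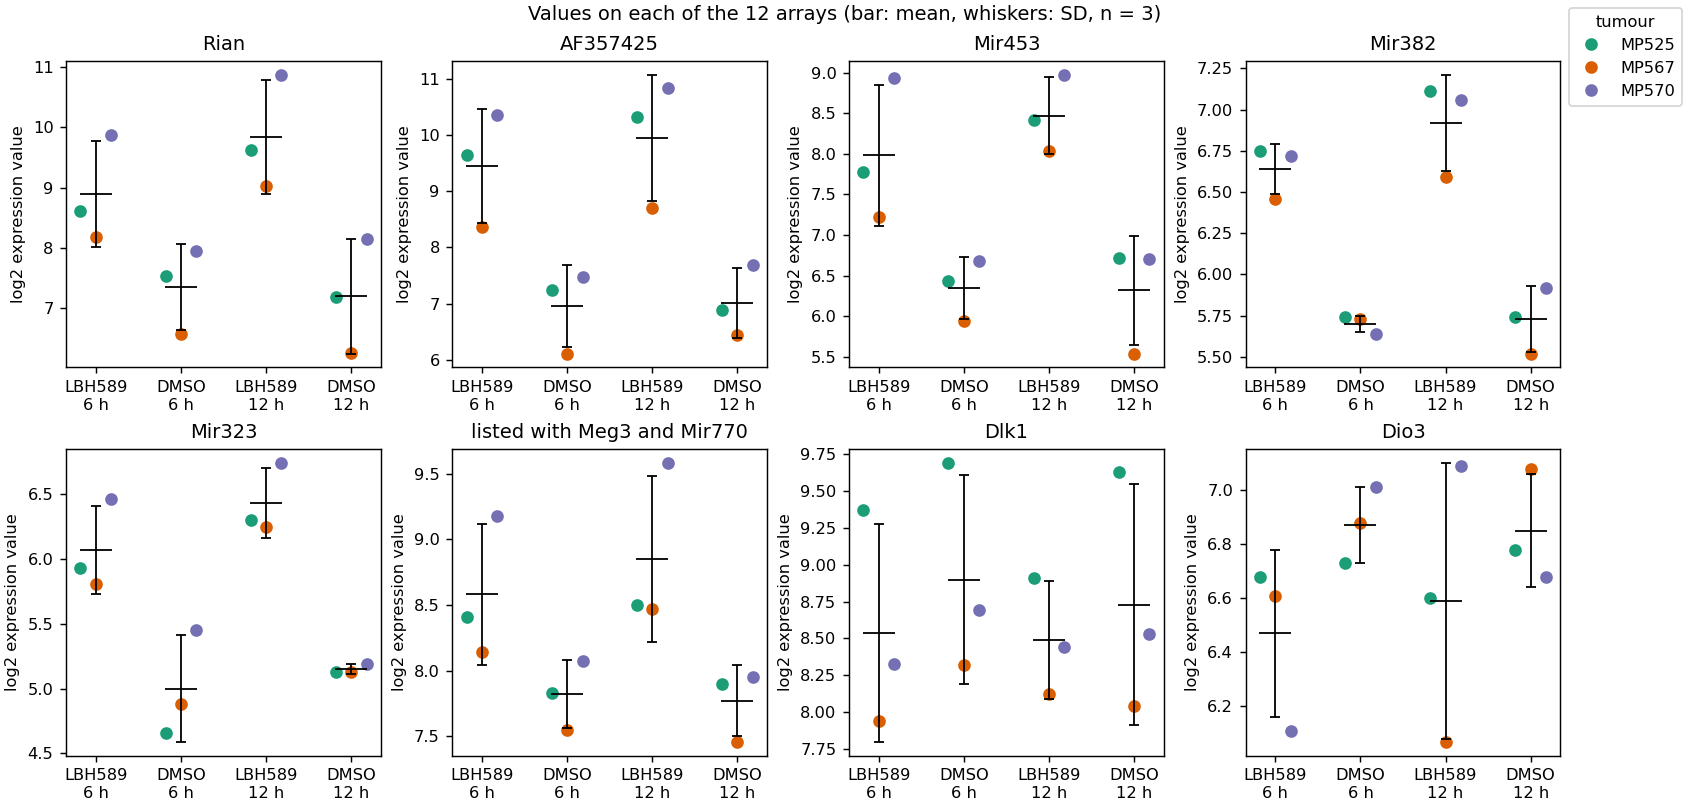
Log2 expression values (y axis) on each of the 12 arrays for 7 members and for the probe set listed with Meg3 and Mir770, by group (x axis, LBH589 and DMSO at 6 h, then at 12 h). Points are arrays coloured by tumour, bars the mean and whiskers the SD (n = 3). For Rian, AF357425, Mir453, Mir382, Mir323 and the Meg3 and Mir770 probe set all LBH589 points lie above all DMSO points of the same time, while for Dlk1 the 2 groups overlap.

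Around Rian, the small nucleolar RNA-like gene AF357425 had the largest differences of all 48 probe sets at both times. It had 9.64, 8.36 and 10.36 in LBH589 at 6 h, against 7.25, 6.11 and 7.48 in DMSO at 6 h. After 12 h the values were 10.32, 8.70 and 10.84 in LBH589, against 6.89, 6.44 and 7.69 in DMSO. No LBH589 array overlapped with DMSO, and MP567 was again the lowest in each group. The differences were 2.51 ± 0.63 (5.68-fold) at 6 h and 2.94 ± 0.63 (7.69-fold) at 12 h, called at both times. The call at 12 h was lost in 5 of the 15 omissions of 1 array or 1 tumour, and that at 6 h in 8 of the 15.

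RefSeq places AF357425, DQ267101, Mir341, Mir1188 and Mir370 within Rian, so their probe sets may read Rian RNA, and the 2 sources cannot be told apart. They did not move alike. Of the 2 probe sets of DQ267101, one had 6.13, 5.98 and 6.91 in LBH589 at 6 h, against 5.24, 5.25 and 4.97 in DMSO at 6 h, without overlap, a difference of 1.19 ± 0.27 that was called. At 12 h the same probe set differed by 0.82 ± 0.27 and was not called. Its other probe set differed by 0.53 ± 0.27 and 0.36 ± 0.27, uncalled, and lay under the 25th percentile of every array.

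Mir341 was called at 12 h, with 8.69, 8.69 and 9.02 in LBH589 against 8.49, 8.31 and 8.19 in DMSO. This was the smallest called difference, 0.47 ± 0.12, and its call was lost in 9 of the 15 omissions. Mir370 (-0.24 ± 0.16 and -0.03 ± 0.16) and Mir1188 (0.06 ± 0.15 and 0.21 ± 0.15), in the same host, were not called at either time. A probe set listed with DQ267100 and Rian together had 7.84, 7.30 and 8.86 in LBH589 at 12 h, against 6.21, 5.98 and 6.75 in DMSO at 12 h. It differed by 1.37 ± 0.44 at 6 h, not called, and by 1.69 ± 0.44 at 12 h, called.

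The 7 microRNA genes in or just after Meg3 (Mir673 to Mir3070b) held 1 call at 12 h (14.3%, against 3.98% of all probe sets) and none at 6 h. That call was Mir493. It had 6.40, 5.99 and 6.96 in LBH589 at 6 h, against 5.61, 5.51 and 5.52 in DMSO at 6 h. After 12 h it had 6.86, 6.24 and 7.0 in LBH589, against 5.67, 5.95 and 5.30 in DMSO. The groups did not overlap, and the differences were 0.91 ± 0.26 and 1.06 ± 0.26 (2.08-fold at 12 h). The tumour MP567 had the smallest step at 12 h.

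Of the other 6, Mir673 had the highest mean over the 12 arrays, 9.69, and differed by -0.06 ± 0.13 at 6 h and 0.22 ± 0.13 at 12 h. Mir540 showed the smallest difference at 12 h, 0.00 ± 0.13. Mir3070b differed by 0.55 ± 0.23 and 0.76 ± 0.23 and was called at 12 h in the paired fit alone. All 7 differences at 12 h were 0.00 or above.

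The Mir379 to Mir410 group, the largest run of microRNA genes, lies around Mirg, its long RNA. It was read by 31 probe sets of its own. Of these, 3 were called higher at 6 h (9.68%, against 3.64% of all probe sets) and 9 at 12 h (29%, against 3.98%). The median difference of the 31 was 0.40 at 6 h and 0.37 at 12 h. The 9 called at 12 h were Mir380, Mir323, Mir329, Mir543, Mir300, Mir382, Mir668, Mir453 and Mir154, which lie along the length of the group.

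The mature pair of Mir382 opens the list of sequences above. The gene had 6.75, 6.46 and 6.72 in LBH589 at 6 h, against 5.74, 5.73 and 5.64 in DMSO at 6 h. After 12 h it had 7.11, 6.59 and 7.06 in LBH589, against 5.74, 5.52 and 5.92 in DMSO. The lowest LBH589 array was above the highest DMSO array at both times. The differences were 0.94 ± 0.15 (1.92-fold) and 1.19 ± 0.15 (2.28-fold), both called. It was the 1 member of the 13 called at 12 h that kept its call in all 15 omissions, with a highest adjusted p of 0.0498. At 6 h the call was lost without all arrays of MP525 or of MP570.

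Mir453 had the largest difference of the group at 12 h. It had 7.78, 7.22 and 8.93 in LBH589 at 6 h, against 6.43, 5.94 and 6.68 in DMSO at 6 h. After 12 h the values were 8.42, 8.03 and 8.97 in LBH589, against 6.72, 5.54 and 6.70 in DMSO. The groups did not overlap, and the differences were 1.63 ± 0.44, not called, and 2.15 ± 0.44, called (4.44-fold). Its call was lost without the LBH589 12 h array of MP570 and without all arrays of MP525 or of MP570.

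Mir323 had 5.93, 5.81 and 6.46 in LBH589 at 6 h, against 4.66, 4.88 and 5.45 in DMSO at 6 h. After 12 h it had 6.30, 6.25 and 6.74 in LBH589, against 5.13, 5.13 and 5.19 in DMSO. Without overlap at either time, it differed by 1.07 ± 0.22 and 1.28 ± 0.22, called both times. All DMSO values and 2 LBH589 values of Mir323 were below the arrays' 25th percentiles, which ran from 5.94 to 6.04, so its level without the drug was low.

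Mir300 was dim throughout, with 5.17, 5.0 and 5.61 in LBH589 at 12 h, against 3.16, 3.69 and 4.19 in DMSO at 12 h. It stayed under the 25th percentile on every array but did not overlap between groups. The differences were 1.68 ± 0.38 at 6 h and 1.58 ± 0.38 at 12 h, both called. Mir154 was likewise under the 25th percentile on all arrays, with 4.89, 4.83 and 4.78 in LBH589 at 12 h, against 4.26, 4.29 and 4.07 in DMSO at 12 h. It differed by 0.13 ± 0.12 at 6 h, with overlap, and by 0.63 ± 0.12 at 12 h, called and without overlap.

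The remaining 4 calls at 12 h were smaller or more variable. Mir380 had 5.83, 4.95 and 6.05 in LBH589 at 12 h, against 4.03, 3.77 and 4.41 in DMSO at 12 h, a difference of 1.54 ± 0.40 after 1.17 ± 0.40 at 6 h. Its call was lost in 10 of the 15 omissions. Mir329 differed by 0.56 ± 0.21 and 0.87 ± 0.21, Mir668 by 0.29 ± 0.13 and 0.63 ± 0.13, and Mir543 by 0.09 ± 0.14 and 0.54 ± 0.14, at 6 h and 12 h in turn. None of these 4 was called at 6 h.

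Other microRNA genes of the group were not called. Mir377 had the largest uncalled difference at 12 h, 1.47 ± 0.53, with 6.10, 5.80 and 6.94 in LBH589 at 12 h, against 4.57, 4.37 and 5.49 in DMSO at 12 h. It did not overlap and was called at both times in the paired fit. Within tumours its steps were 0.91, 0.53 and 2.44 at 6 h, and close together at 12 h, at 1.52, 1.43 and 1.45. The second probe set of Mir376a had the most negative difference of the group at 12 h, -0.20 ± 0.16. Its first probe set had the lowest mean of the group over the 12 arrays, 2.46. Mir654, Mir758 and Mir667, with values above the 25th percentile on all 12 arrays, differed at 12 h by 0.29 ± 0.17, 0.21 ± 0.17 and 0.37 ± 0.25 and were not called.

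Where a microRNA gene had a pair of probe sets, they did not always read alike. The second probe set of Mir380 differed by 0.06 ± 0.15 at 12 h, where the first differed by 1.54. For Mir299a the 2 differed by 0.06 ± 0.17 and -0.13 ± 0.11, and for Mir409 by 0.15 ± 0.19 and -0.11 ± 0.13. By identifier, these second probe sets and that of Mir376a lie in the series of Dio3os, the antisense partner of Dio3. The first ones lie in the series of Dlk1, Rian and Dio3. The files do not say which strand each reads, and a difference between strands was not tested.

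Mirg, Rtl1 and 10 microRNA genes were listed only on probe sets shared with other genes, so no value is given to any of them alone. Of the 12 shared probe sets, none was called at 6 h (7 were higher and none lower at an unadjusted p under 0.05). At 12 h, 4 were called higher (33.3%, against 3.98% of all probe sets) and none lower. In the paired fit, 5 were called higher at 6 h (41.7%, against 9.26%) and 7 at 12 h (58.3%, against 9.50%). The one listed with Mirg, Mir369, Mir410 and Mir412 had 6.61, 6.41 and 7.18 in LBH589 at 12 h, against 5.78, 5.50 and 5.86 in DMSO at 12 h. It did not overlap and differed by 0.63 ± 0.24 at 6 h and 1.02 ± 0.24 at 12 h, called at 12 h.

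Of the other shared probe sets with Mirg, that with Mir485 differed by 1.01 ± 0.30 and 1.13 ± 0.30, called at 12 h, and that with Mir134 by 0.17 ± 0.16 and 0.48 ± 0.16, not called. Rtl1 encodes a retrotransposon-derived protein needed in the placenta, and the microRNA genes Mir431, Mir433, Mir127, Mir434 and Mir136 lie antisense to it on the maternal RNA. The probe set listed with Rtl1, 6430411K18Rik, Mir433 and Mir127 had 6.76, 6.61 and 6.90 in LBH589 at 12 h, against 6.37, 6.15 and 6.15 in DMSO at 12 h. Its difference was 0.27 ± 0.12 at 6 h and 0.54 ± 0.12 at 12 h, called at 12 h. Probe sets listed with Rtl1 and Mir431 (0.30 ± 0.13 at 12 h), Rtl1 and Mir434 (-0.07 ± 0.12) and Rtl1 and Mir432 (0.07 ± 0.23) were not called. That with Rtl1, Mir136 and Mir3071 differed by 0.47 ± 0.16 at 6 h and 0.06 ± 0.16 at 12 h, uncalled. That with Rtl1 and Mir3071, in the identifier series of Dio3os, differed by -0.02 ± 0.15 and 0.13 ± 0.15, uncalled. No strand is stated for these probe sets, so sense and antisense RNA cannot be told apart with certainty.

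A further 12 genes that RefSeq places between Dlk1 and Dio3, and that are not members, had a probe set of their own. Of these, 1 was called higher at 6 h (AF357426, a small nucleolar RNA gene, 1.72 ± 0.46) and 1 at 12 h (Mir1197, 0.86 ± 0.18), with none lower. This was 8.33% at each time, against 3.64% of all probe sets at 6 h and 3.98% at 12 h. The paired fit called 3 higher at 6 h (25%, against 9.26%) and 5 at 12 h (41.7%, against 9.50%), with none lower. The median difference of the 12 was 0.48 at 6 h and 0.56 at 12 h. AF357355 had 7.74, 6.34 and 8.30 in LBH589 at 12 h, against 5.59, 5.23 and 6.50 in DMSO at 12 h, with overlap, and differed by 1.68 ± 0.62 at both times, uncalled. Dio3os, the antisense partner of Dio3, differed by -0.17 ± 0.15 and 0.00 ± 0.15.

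Elsewhere in the genome, the 464 probe sets of other microRNA genes had a median difference of -0.01 at 6 h and 0.00 at 12 h. There were 13 called higher (2.8%) and 4 lower (0.862%) at 6 h, and 7 higher (1.51%) and 5 lower (1.08%) at 12 h. In the paired fit these were 22 (4.74%) and 11 (2.37%) at 6 h, and 24 (5.17%) and 17 (3.66%) at 12 h. For the 75 probe sets of other small nucleolar RNA genes the medians were -0.13 and 0.16. At 6 h none was higher and 2 were lower (2.67%, against 3.20% of all probe sets). At 12 h 3 were higher (4%, against 3.98%) and none lower, so these shares were near those of all probe sets. The paired fit called 1 of the 75 higher and 7 lower (9.33%, against 7.76%) at 6 h. At 12 h it called 16 higher (21.3%, against 9.50%) and 3 lower (4%, against 10.1%). At an unadjusted p under 0.05 these 75 held 1 higher and 9 lower at 6 h, and 9 higher and 7 lower at 12 h.

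Whether the LBH589 effect on the members changed with time was tested as the difference between the 12 h and the 6 h effects. No member was called (limma, 0 of 48, and 0% of all probe sets). At an unadjusted p under 0.05 there were 2, both with a higher effect at 12 h, where 509 of all probe sets were higher and 735 lower. Rian had the largest of these differences, 1.10 ± 0.87, and Mir411 the most negative, -0.84 ± 0.48. Mir154 differed by 0.50 ± 0.17 and Mir543 by 0.45 ± 0.19. The paired fit also called no member. In it 3 members, Rian among them, reached an unadjusted p under 0.05, all higher, where 1153 of all probe sets were higher and 1862 lower. There the difference of 1.10 for Rian had an SE of 0.22 (limma, adjusted p = 0.471). Within tumours the steps of Rian were 1.09, 1.61 and 1.92 at 6 h, and 2.44, 2.77 and 2.72 at 12 h.

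In DMSO alone, 12 h against 6 h, no member was called, where 0.0121% of all probe sets were. None reached an unadjusted p under 0.05 in limma, and 1 did in the paired fit. The differences ran from -0.21 to 0.48, with a median of 0.07. In LBH589, 12 h against 6 h, no member was called, nor was any other probe set (0%). At an unadjusted p under 0.05 there were 4 members, all higher at 12 h, where 1178 of all probe sets were higher and 1587 lower. In the paired fit 8 members reached it, all higher, and none was called. The differences in LBH589 ran from -0.36 for Mir411 to 0.95 for Rian, with a median of 0.16.

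The tumours differed in the level of some members. A test over treatment and time called 7 of the 48 (14.6%, against 20.3% of all probe sets): Dlk1, Rian, AF357425, Mir323, Mir679, Mir453 and Mir377. The share was below that of all probe sets. Dlk1 averaged 9.40 over the 4 arrays of MP525, 8.11 over those of MP567 and 8.50 over those of MP570 (limma, adjusted p = 0.000262). Rian averaged 8.24, 7.51 and 9.21 in the same tumours (limma, adjusted p = 0.000117), so the tumour with the most Dlk1 was not the tumour with the most Rian.

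AF357425 had the order of Rian, with means of 8.52, 7.40 and 9.09 in MP525, MP567 and MP570 (limma, adjusted p = 0.000454). Mir453 averaged 7.33, 6.69 and 7.82 (limma, adjusted p = 0.00523), and Mir377 5.26, 4.86 and 6.15 (limma, adjusted p = 0.0124). Mir679 averaged 7.12, 6.80 and 7.24, and Mir323 5.50, 5.52 and 5.96, with adjusted p = 0.0376 and 0.0388 in limma. For all 6 maternal members, MP570 had the highest mean. Dio3 averaged 6.70, 6.66 and 6.72 and was not called.

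**Figure D3:**
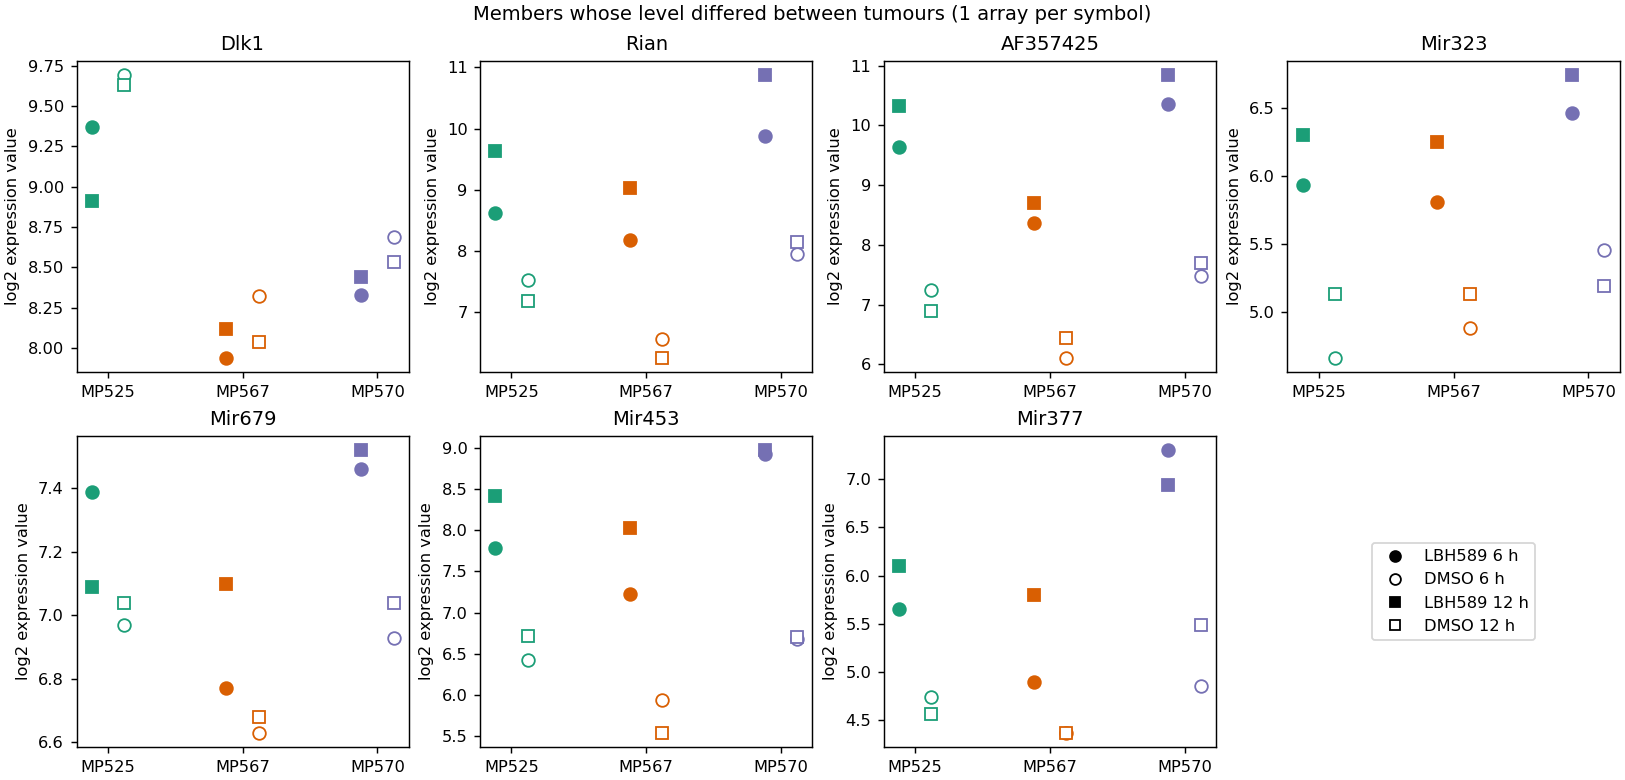
Log2 expression values (y axis) of the 7 members whose level differed between tumours, by tumour (x axis). Filled symbols are LBH589 and open symbols DMSO, circles 6 h and squares 12 h, 1 array each. Dlk1 is highest in MP525, and the other 6 members have their highest values in MP570.

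Whether LBH589 acted unequally in the 3 tumours was tested as a treatment by tumour term. No member was called (0 of 48, limma), where 0.0145% of all probe sets were. An unadjusted p under 0.05 was reached by 9 of the 48 members' probe sets, and by 3555 of all 41345. Read within tumours, LBH589 was above DMSO in all 3 for 26 members' probe sets at 6 h (54.2%, against 24.0% of all probe sets) and for 24 at 12 h (50%, against 20.4%). The median difference of the 48 within MP525, MP567 and MP570 was 0.28, 0.14 and 0.52 at 6 h and 0.33, 0.17 and 0.59 at 12 h. It was largest in MP570 and smallest in MP567 at both times. Each such value rests on 1 array per treatment.

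**Figure D4:**
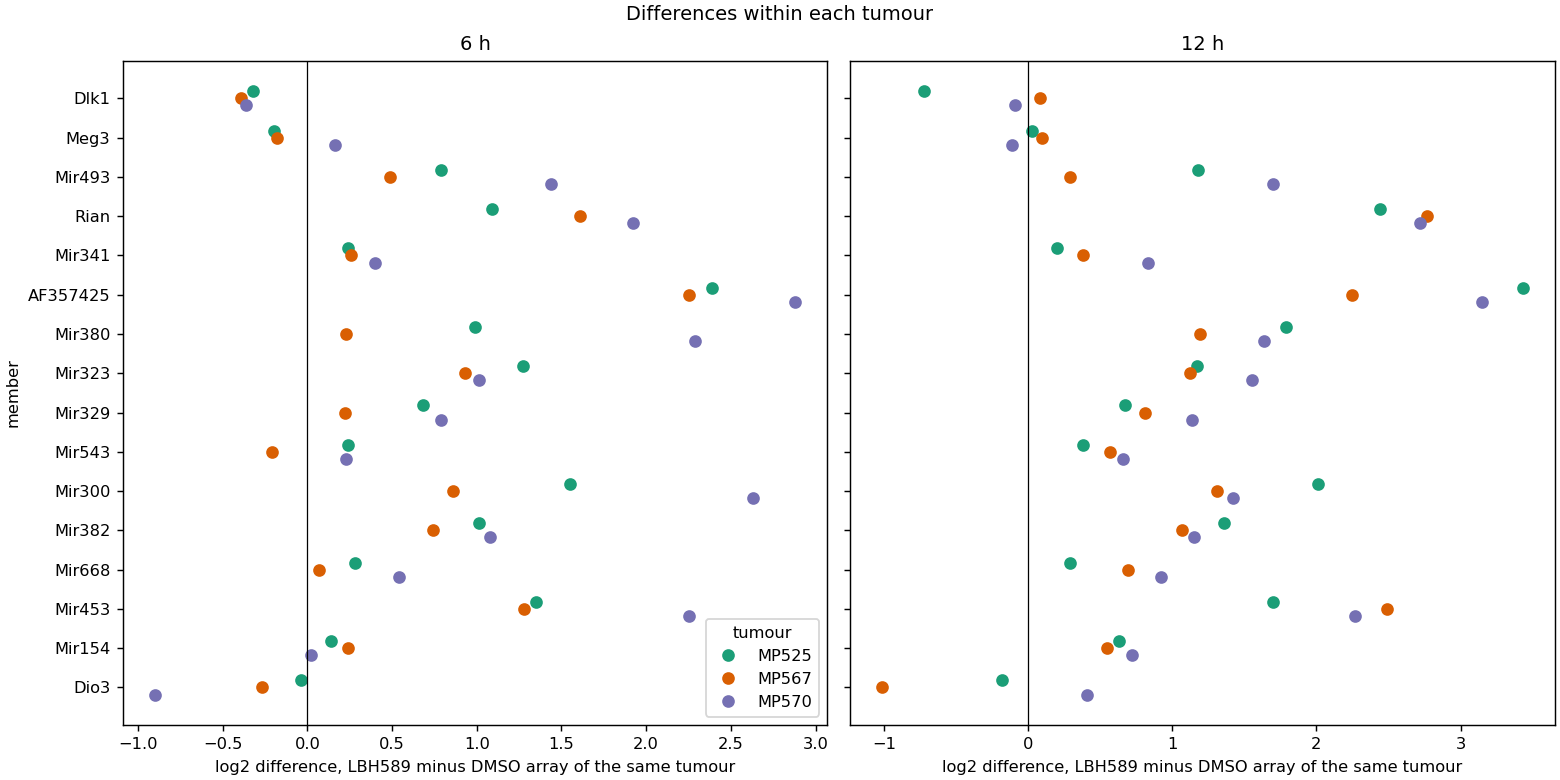
Log2 difference between the LBH589 and the DMSO array of the same tumour (x axis) for the 13 members called at 12 h and for Dlk1, Meg3 and Dio3 (y axis), at 6 h (left) and 12 h (right), with points coloured by tumour. At 12 h all 3 tumours lie above 0 for each of the 13, with Rian between 2.44 and 2.77, while Dio3 has tumours on both sides of 0.

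Genes on either side of the cluster, outside the imprinted stretch, were read for comparison from a list chosen with earlier results known. Of 17 measured, 3 were called higher at 6 h and 3 at 12 h (17.6% at each time, against 3.64% and 3.98% of all probe sets), with none lower. At an unadjusted p under 0.05, 7 were higher at 6 h and 6 at 12 h, with none lower. The paired fit called 6 higher at 6 h (35.3%, where it called 22.9% of the members' probe sets) and 3 at 12 h. Mok, which encodes a kinase of the MAP kinase superfamily, differed by 1.51 ± 0.17 and 1.21 ± 0.17 (limma, adjusted p = 0.000823 and 0.00194). Slc25a29, a mitochondrial amino acid carrier gene, differed by 0.81 ± 0.14 and 0.67 ± 0.14. Ppp2r5c was called at 6 h alone (0.38 ± 0.10) and Zfp839 at 12 h alone (0.46 ± 0.11). Yy1 and Wdr25, on the Dlk1 side like Slc25a29, were not called, with differences between -0.07 and 0.03.

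A list of 14 genes of DNA methylation and imprint maintenance also holds genes of the Tet oxidases. In limma without the block none of the 14 was higher at either time. At 6 h 2 were lower (14.3%, against 3.20% of all probe sets), and at 12 h 3 were lower (21.4%, against 4.56%). One was higher at an unadjusted p under 0.05 at each time. Ctcf, the insulator protein gene, averaged 9.72 ± 0.12 in LBH589 and 10.87 ± 0.15 in DMSO at 6 h (SD, n = 3 each). It fell by 1.15 on the log2 scale at 6 h and by 1.03 at 12 h (limma, adjusted p = 0.000442 and 0.000629). Zfp57, whose protein holds methylation at imprinted regions, averaged 8.48 ± 0.12 in LBH589 and 9.24 ± 0.07 in DMSO at 6 h (SD, n = 3 each), and fell by 0.76 at 6 h and by 0.65 at 12 h. Tet2, a 5-methylcytosine oxidase gene, fell by 0.69 at 12 h. The maintenance methyltransferase gene Dnmt1 (-0.10 ± 0.16 and -0.12 ± 0.16) was not called. In the paired fit, 5 were lower (35.7%, against 7.76% of all probe sets) and 1 higher at 6 h. At 12 h, 8 were lower (57.1%, against 10.1%) and none higher.

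Of 9 genes of microRNA processing and the Argonaute proteins, 2 were lower at each time and none was higher. This is 22.2%, against 3.20% of all probe sets lower at 6 h and 4.56% at 12 h. At an unadjusted p under 0.05, 2 of the 9 were higher at 6 h and 1 at 12 h. Xpo5, whose protein carries microRNA precursors out of the nucleus, averaged 10.40 ± 0.22 in LBH589 and 11.07 ± 0.14 in DMSO at 12 h (SD, n = 3 each), and fell by 0.60 at 6 h and by 0.68 at 12 h. Tarbp2, a Dicer partner gene, fell by 0.94 at 6 h, and Ago1 by 0.61 at 12 h. Drosha, the nuclease gene that frees the precursors, differed by -0.36 ± 0.30 and -0.48 ± 0.30 and was called lower in the paired fit alone, at both times. In the paired fit, 4 were lower and 2 higher at 6 h, and 5 lower and 1 higher at 12 h.

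Of 3 genes of box C/D small nucleolar RNA proteins, Nop56 was lower at both times, falling by 0.57 at 6 h and by 0.55 at 12 h. Nop58 (-0.46 ± 0.16 and -0.44 ± 0.16) was lower at both times in the paired fit alone, which called 2 of the 3. Of 10 genes of Polycomb repressive complex 2, reported to bind Meg3 RNA in mouse stem cells, none was called at 6 h and Rbbp7 alone was lower at 12 h, by -0.42 ± 0.08. At an unadjusted p under 0.05, 1 was lower at 6 h and 3 at 12 h. Ezh2, its methyltransferase gene, differed by -0.20 ± 0.10 and -0.29 ± 0.10. The paired fit called Jarid2 higher at 6 h (0.42 ± 0.19), and Ezh2, Eed (-0.43 ± 0.14), Mtf2 (-0.30 ± 0.15) and Rbbp7 lower at 12 h.

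Markers of other cell types that a tumour culture could hold were read beside these values. Of 5 endothelial markers, Kdr was called higher at both times (0.81 ± 0.19 and 0.71 ± 0.19) and the other 4 were not. The mean of the 5 ranged over 7.85 to 8.18 in LBH589 and 7.60 to 8.07 in DMSO at 6 h, and over 7.75 to 8.29 in LBH589 and 7.32 to 8.03 in DMSO at 12 h. All 5 were positive at both times, and the paired fit also called Cldn5 at 12 h (0.55 ± 0.33). Of 8 microglial and macrophage markers, none was called at 6 h and Cd68 was higher at 12 h (0.71 ± 0.17), while 6 of the 8 were negative at 12 h and the median was -0.07. None of the 8 differed at an unadjusted p under 0.05 at 6 h, and 2 were higher and 2 lower at 12 h. Their mean ranged over 7.24 to 7.34 in LBH589 and 7.36 to 7.41 in DMSO at 6 h, lower in LBH589 without overlap, and over 7.30 to 7.48 in LBH589 and 7.26 to 7.65 in DMSO at 12 h, with overlap.

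Of 5 mature neuron markers, none was called at 6 h and Syt1 was higher at 12 h (0.78 ± 0.17), while 3 of the 5 were negative. The paired fit called 2 higher (Syt1 and Snap25) at both times, with Map2 lower at 6 h and Map2 and Rbfox3 lower at 12 h. Their mean ranged over 8.93 to 9.57 in LBH589 and 9.01 to 9.63 in DMSO at 12 h. No astrocyte, oligodendrocyte or fibroblast marker was called in limma without the block, and at an unadjusted p under 0.05 there was 1, a fibroblast marker higher at 12 h. The paired fit called the astrocyte marker Gja1 lower at both times, Gfap higher at 12 h and the oligodendrocyte lineage marker Olig2 higher at 6 h.

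Some markers of the tumour cells themselves also differed. Of 6 Group 3 markers, Npr3 was lower at both times, by -1.63 ± 0.26 and -1.61 ± 0.26. Each fit called 1 of the 6 lower at each time and none higher. The median of the 6 was -0.19 at 6 h and -0.03 at 12 h, with 1 and 2 positive. Of 5 neural stem or progenitor markers, Msi1 was lower at both times (-1.02 ± 0.13 and -1.04 ± 0.13) and Prom1 at 12 h (-0.98 ± 0.18). In the paired fit, Nes and Fabp7 were higher at 12 h. Of 8 granule lineage markers none was called, 7 were negative at 6 h and 8 at 12 h, and the paired fit called 3 lower at 6 h (Zic1, Zic2 and Neurod1) and 2 at 12 h (Neurod1 and Pax6). One of these 8 was lower at each time at an unadjusted p under 0.05. The part of such cells, and of a shift in the tumour cells, in the members' differences was not tested.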

How the data were processed

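The deposited values are log2 values from the authors, 1 per probe set, between 1.50 and 14.5. Their summary and normalization steps are unstated in the labels and headers, and the submitters' processing notes list Agilent Feature Extraction 10.7.3.1, although the labels describe GeneChip labelling. They were used as deposited. The platform annotation lists 1 gene for 23521 of 41345 probe sets, several for 1814, and does not hold the other 16010.

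The means of the 4 groups were fitted to all probe sets with limma 3.58.1 in R 4.3.3 (lmFit, eBayes with trend). Two-sided p-values were adjusted over the whole table by Benjamini-Hochberg, and the threshold was 0.05. Tumour level and treatment by tumour were limma F tests. The fit without the block and the F tests were tried on simulated data. There the drug change was simulated without differences between tumours, unlike in these arrays, and the paired fit was not simulated.

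The labels pair the arrays of a tumour. Their deviations from group means correlated at 0.0284 to 0.557 within tumours and at -0.447 to 0.141 across tumours and groups. A paired fit, with tumour as a block, was an alternative. No batch is named in the labels.

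The members and lists were chosen with earlier results of these data known. Named were Meg3, Rian, Mirg, Dlk1, Rtl1, Dio3, called members, the extremes of each stretch of the cluster and up to 4 called genes of each list. Uncalled genes outside this rule were named after their values were seen.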

Additional observations from a re-analysis of the deposited data

How the results depend on the processing

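The number of members called in LBH589 against DMSO depended on the fit and on single arrays. At 6 h it was 5, and 11 in the paired fit (replicate block) or 9 with a random replicate block. At 12 h the paired fit called 15 and the random block 16, against 13, and it changed no call in the time contrasts. Leaving out 1 array or 1 tumour gave 0 to 8 calls at 6 h and 1 to 15 at 12 h. At 6 h, 0 were left without the tumour MP525 and 1 without MP570. There was 1 without the DMSO array of MP525 or of MP567 or the LBH589 array of MP570, and 2 without the DMSO array of MP570. There were 3 without the LBH589 array of MP525 and 8 without that of MP567. At 12 h, 1 was left without MP525, 5 without MP567 and 3 without MP570. There were 3 without the LBH589 array of MP570, 6 without the DMSO array of MP525 or of MP567, and 8 without the DMSO array of MP570. Such fits also hold fewer arrays, and a lone tumour pair left in a group is assumed to vary like the others. Members whose level differed between tumours numbered 7, against 11 among probe sets of 1 gene alone and 5 to 10 without single arrays. Rian was called at 6 h in both block fits, at 1.54. Its call at 12 h was lost in 5 omissions, with log2 differences of 2.13 to 2.74. Quantile normalization, centring on medians, the filter at the 25th percentile and no trend left every count within 1.5 times. Of 5 calls at 6 h none held in all 15 omissions, and of 13 at 12 h Mir382 alone did. Mirg and Rtl1 have no probe set of their own, so their alternatives were not run. Signal near the array background limits 14 of the 48 probe sets, which lay under the 25th percentile on all arrays.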

Other observations

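Genes of thyroid hormone handling, the pathway that Dio3 acts on, were read beside it. Of 7 measured, none was called at either time in limma, and at an unadjusted p under 0.05 none differed at 6 h and 1 was lower at 12 h. Dio1 and Dio2, the deiodinase genes that activate the hormone, differed by -0.20 ± 0.17 and -0.22 ± 0.22 at 6 h, and by -0.36 ± 0.17 and -0.12 ± 0.22 at 12 h (log2 change ± SE). The hormone transporter gene Slc16a10 averaged 9.39 ± 0.33 in LBH589 and 9.93 ± 0.13 in DMSO at 12 h (SD, n = 3 each), a difference of -0.55 ± 0.17 that was called in the paired fit alone. Of the 3 Mef2 factor genes measured, known to act on microRNAs of this cluster in muscle, none was called, and none reached an unadjusted p under 0.05. Mef2a differed by 0.09 ± 0.13, Mef2c by -0.11 ± 0.28 and Mef2d by -0.10 ± 0.11 at 12 h.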
